A study of Mus musculus with 27 samples.

Results

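The wild-type cerebral cortex of C57BL/6 mice was compared between embryonic day (E) 13.5 and E15.5, using the control libraries alone. These were the 6 libraries of 27 in the series whose genotype label reads wildtype and whose labelled age is embryonic: 3 at E13.5 and 3 at E15.5. Cortices were dissected and flash frozen, and total RNA was sequenced. At E15.5, replicates 2 and 3 have the same number in their titles and end in the letters R and L; they were summed and counted as 1 sample, which left 3 samples against 2. The title of E15.5 replicate 1 ends in R as well, and no E13.5 control title ends in either letter. Whatever these letters stand for thus cannot be told apart from age. The series also holds cortices of the same strain in which Emx1-Cre, active in the dividing cells of the dorsal forebrain and their descendants, recombined floxed Bcl11a (Bcl11a-CKO, Emx1-Cre; Bcl11aFlox/Flox) or both floxed Bcl11a and floxed Bcl11b (Bcl11ab-DCKO, Emx1-Cre; Bcl11aFlox/Flox; Bcl11bFlox/Flox). Their 12 embryonic libraries were used to estimate the spread between replicates and, at the end, to test where the change with age differed from that of the controls. The labels do not say whether the controls carried Cre or floxed alleles, whether several embryos were pooled, or which animal each library came from, so the p-values rest on differences among samples that may be partly technical.

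The embryonic cortex grows from radial glia, the stem cells that line the ventricle. They divide to renew themselves and give rise to neurons, either directly or through intermediate progenitors, which divide once more or a few times in the subventricular zone. Projection neurons are made in an order: the subplate and the deep layers, which send axons out of the cortex, come first, and the upper layers, which connect cortical areas with each other, come later. Astrocytes and oligodendrocytes follow after neurons, while inhibitory interneurons are born in the ventral forebrain and migrate into the cortex.

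The control libraries held 4313142 to 5186798 counts over 34745 genes, of which 14947 had enough counts to be tested. Levels are given as CPM, counts scaled to the library total with TMM factors, in the order of E13.5 replicates 1, 2 and 3 and then E15.5 replicate 1 and the summed pair. A CPM value is not divided by gene length, so levels compare samples for a gene and not genes with each other. The first principal component of the 6 libraries took up 72.5% of the variance and separated the ages; E13.5 replicate 2 lay nearest to E15.5. Sex-linked transcripts showed the female pattern in 1 sample of each age and the male pattern in the others. Of 8 genes that mark the dorsal forebrain, 2 rose (Neurod2 and Neurod6), 4 fell (Emx1, Emx2, Pax6 and Lhx2) and 2 did not pass the test. Emx1, a homeodomain factor of the dorsal forebrain, was at 192, 171 and 186 CPM at E13.5 and 99.1 and 89.7 CPM at E15.5 (log2 fold change -0.96 ± 0.11, adjusted p = 1.33e-05), so it was present in every sample. Of 8 choroid plexus genes, Ttr, Kl, Clic6, Otx2 and Prlr had 0 counts in all control libraries. The summed level of these 8 genes was 6.23, 4.91 and 4.16 CPM at E13.5 and 1.20 and 1.52 CPM at E15.5. Only 1 of them had enough counts to be tested, and it fell (log2 fold change -1.97).

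Between E13.5 and E15.5 the wild-type cortex lost transcripts of dividing cells and gained those of differentiating neurons. All 35 genes of a cell division list fell, along with most genes of radial glia, intermediate progenitors, Notch signalling and Wnt signalling. Genes of deep-layer and upper-layer projection neurons, of synapses, of GABA receptors and of voltage-gated channels mostly rose. Transcripts of the meninges and of embryonic red blood cells were also far lower at E15.5. Of all genes tested, 48.0% passed the threshold (7176 genes, edgeR quasi-likelihood test, Benjamini-Hochberg adjusted p under 0.05): 3625 rose (24.3%) and 3551 fell (23.8%). A change of at least 2-fold was called for 1610 genes that rose (10.8%) and 1229 that fell (8.22%). The samples of the ages did not overlap for 67.0% of all genes tested, in either direction. Among the 7176 genes called, 7127 did not overlap, so for a called gene the lack of overlap adds little to the call. The median log2 fold change, E15.5 minus E13.5, over all genes tested was -0.013. The counts of each gene group below are to be read against these shares and this median. The lists were chosen with earlier results of these data known, so their counts are descriptions and not independent tests. Some genes are on several lists, so the lists are not independent of each other. Hes1, Hes5 and Notch1 are counted under both Notch signalling and radial glia, and Dll1 and Dll3 under both Notch signalling and intermediate progenitors. Tnc is counted under both radial glia and the extracellular matrix, and Slc17a6 under both the pan-neuronal and the presynaptic list. Pax6, Emx2 and Lhx2 are counted under both the dorsal forebrain and radial glia, and Lef1 under both Wnt signalling and the thalamus. Neurod2 and Neurod6 are on both the dorsal forebrain and the pan-neuronal list. Slc1a3 is on both the radial glia and the astrocyte list, and Bcan on both the extracellular matrix and the astrocyte list. Other genes may be shared too.

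**Figure D1:**
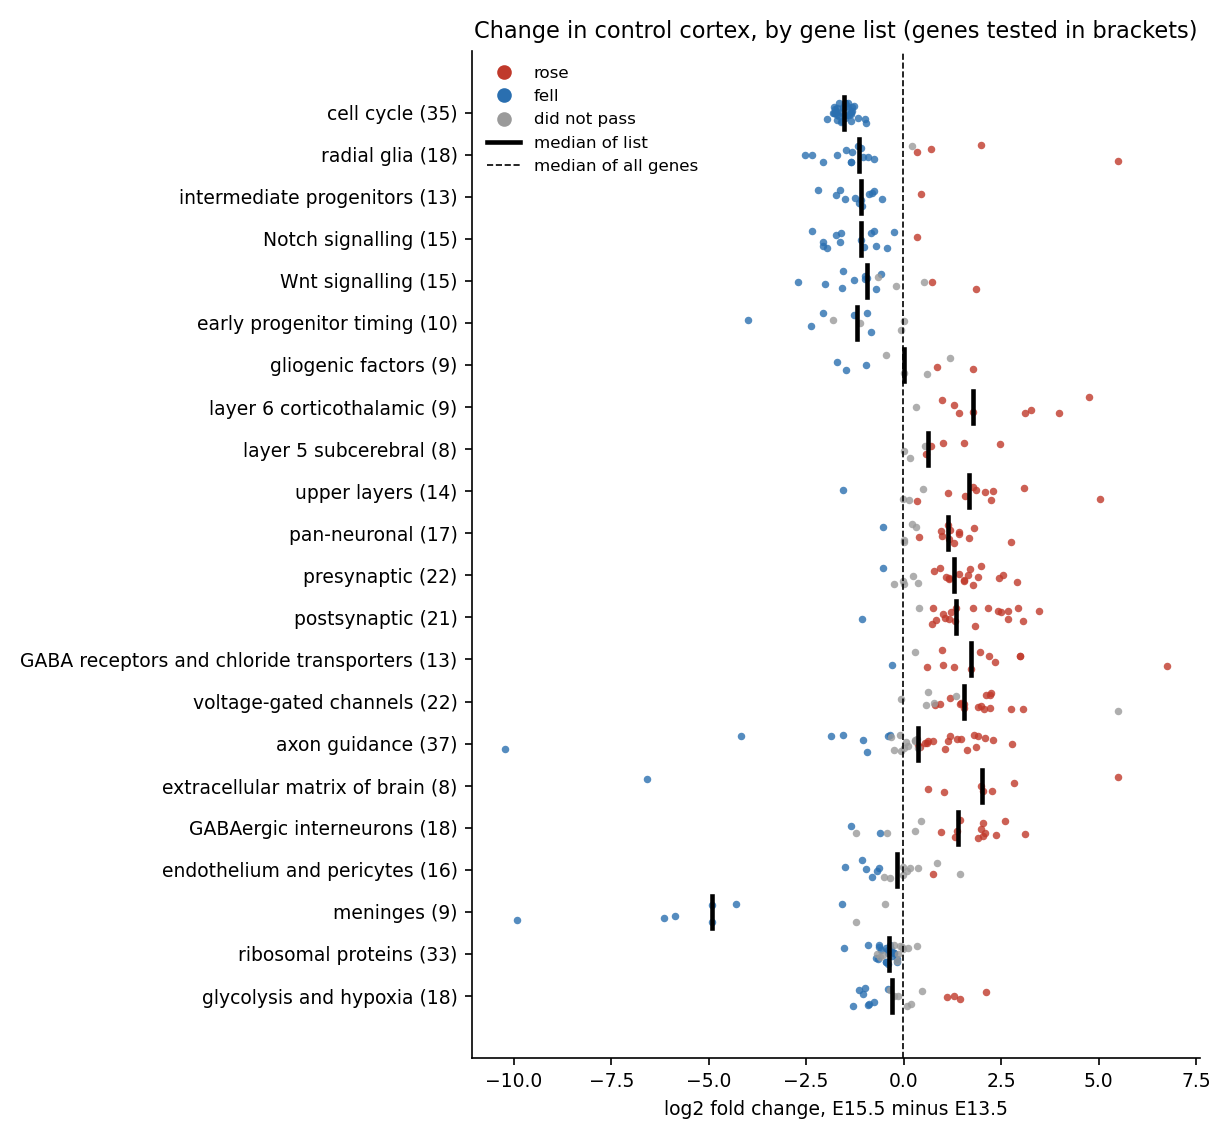
Log2 fold change (E15.5 minus E13.5) of the tested members of 22 gene lists in control cortex; each point is a gene, coloured by whether it rose, fell or did not pass the test at an adjusted p of 0.05, the black bar is the median of the list and the dashed line the median of all genes tested (-0.013). All 35 cell division genes lie to the left, while most genes of layer 6, upper layers, synapses and channels lie to the right.

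Cell division genes fell without exception. Of the cell cycle list, 0 of 35 rose, 35 fell and 0 did not pass the test, with a median log2 fold change of -1.53; their summed level was 9694, 9075 and 10697 CPM at E13.5 and 3476 and 3278 CPM at E15.5, so the E15.5 samples were far below every E13.5 sample. Mki67, a chromosome coat protein of dividing cells, was at 1036, 901 and 1135 CPM at E13.5 and 354 and 355 CPM at E15.5 (log2 fold change -1.53 ± 0.16, adjusted p = 5.29e-06; ± is the standard error of the fit). Top2a, the topoisomerase that untangles chromosomes before mitosis, was at 813, 758 and 900.5 CPM at E13.5 and 277 and 276 CPM at E15.5 (log2 fold change -1.58 ± 0.15, adjusted p = 2.46e-06). Ccnd2, the cyclin that drives radial glia through G1, was at 1988, 1914 and 2249.8 CPM at E13.5 and 654 and 638 CPM at E15.5 (log2 fold change -1.67 ± 0.13, adjusted p = 5.15e-07). The groups did not overlap for any of these 3 genes; the fitted level at E13.5 was 2.89, 2.98 and 3.18 times that at E15.5. The mitotic genes Ccnb1 (-1.56 ± 0.15), Cdc20 (-1.75 ± 0.14), Aurka (-1.46 ± 0.15), Ube2c (-1.77 ± 0.15) and Cenpf (-1.36 ± 0.13) fell too. The log2 fold changes of the whole list ran from -1.95 for Ccne1 to -0.96 for Mcm7, both named after their values were seen. In bulk tissue, fewer cells of a type and less RNA per cell cannot be told apart.

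Inhibitors of the cycle moved in both directions. Of the list, 2 of 8 rose, 3 fell and 3 did not pass the test, and Cdkn2a and Cdkn2b had 0 counts. Cdkn1b (p27), which holds cells in G1, was at 116, 107 and 159.6 CPM at E13.5 and 204 and 222 CPM at E15.5 (log2 fold change 0.74 ± 0.29, adjusted p = 0.0477). Cdkn1c (p57) was at 146, 103 and 94.8 CPM at E13.5 and 73.5 and 61.1 CPM at E15.5 (log2 fold change -0.77 ± 0.16, adjusted p = 0.00111). Rbl1 (p107), an E2F partner, was at 86.5, 69.3 and 68.0 CPM at E13.5 and 31.8 and 32.0 CPM at E15.5 (log2 fold change -1.22 ± 0.17, adjusted p = 4.3e-05). Cdkn1b was thus higher at E15.5 and the others lower, with no overlap between the ages. The call on Cdkn1b was lost without E13.5 replicate 1, E13.5 replicate 2, E15.5 replicate 1 or the summed E15.5 pair (adjusted p from 0.0962 to 0.183).

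Promoters of the cell division genes were examined because these genes fell together. RefSeq promoters (GRCm38.p6, 250 bases before and 50 from the start site on) were found for 27 of the 35 genes, 28 promoters in all. CCAAT, the letters bound by NF-Y and read on the other strand as ATTGG, stood on either strand in 82.1% of them, against 37.3% of the promoters of all genes tested and 37.4% of all promoters of this length. TTTGAA, the core of the cell cycle homology region (CHR) that is bound by the DREAM and MuvB complexes and is read on the other strand as TTCAAA, stood in 42.9%, against 11.7% of those of genes tested and 17.9% of all. TTCGCGC, an E2F site whose other strand reads GCGCGAA, stood in 14.3%, against 2.90% and 1.59%. Among genes that fell at least 2-fold, 19.9% of promoters held TTTGAA, and among those that rose at least 2-fold 10.9% did. CCAAT stood in 40.9% and 31.6% of these promoters and TTCGCGC in 3.44% and 1.601%, so among genes that fell both were within 4 percentage points of the share of all genes tested. These are matches of letters, not measured binding. The promoters of 4 genes are given, of the mitotic genes Ccnb2 and Cdk1, of Top2a and of the replication gene Mcm6, each from 150 bases before the start site to 30 from it on; capitals mark the matches to the 3 motifs on either strand. The genes were chosen for display after their matches were seen, and all 4 lie on the minus strand.
Ccnb2, chr9:70421525-70421704: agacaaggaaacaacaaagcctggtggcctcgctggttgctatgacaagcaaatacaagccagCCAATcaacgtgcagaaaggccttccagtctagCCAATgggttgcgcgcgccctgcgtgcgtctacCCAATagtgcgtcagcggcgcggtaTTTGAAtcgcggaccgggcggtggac
Cdk1, chr10:69352883-69353062: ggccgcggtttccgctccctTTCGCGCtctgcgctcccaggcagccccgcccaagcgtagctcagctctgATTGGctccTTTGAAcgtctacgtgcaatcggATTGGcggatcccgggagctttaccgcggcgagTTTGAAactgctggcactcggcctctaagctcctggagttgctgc
Top2a, chr11:99024160-99024339: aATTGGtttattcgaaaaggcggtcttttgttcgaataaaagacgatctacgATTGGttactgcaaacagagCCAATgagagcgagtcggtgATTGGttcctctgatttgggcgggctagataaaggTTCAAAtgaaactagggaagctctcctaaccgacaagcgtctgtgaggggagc
Mcm6, chr1:128359676-128359855: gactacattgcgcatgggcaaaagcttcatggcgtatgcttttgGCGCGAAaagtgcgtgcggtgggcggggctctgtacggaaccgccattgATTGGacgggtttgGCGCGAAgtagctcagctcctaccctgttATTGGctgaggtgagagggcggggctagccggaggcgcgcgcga
Ccnb2, a cyclin of mitosis, was at 75.2, 77.8 and 79.7 CPM at E13.5 and 28.4 and 24.9 CPM at E15.5 (log2 fold change -1.55 ± 0.13, adjusted p = 1.16e-06); its window holds 3 CCAAT and 1 TTTGAA. Cdk1, the kinase of mitosis, was at 105, 104 and 100.3 CPM at E13.5 and 43.8 and 36.9 CPM at E15.5 (log2 fold change -1.36 ± 0.14, adjusted p = 4.36e-06), with 2 CCAAT, 2 TTTGAA and 1 TTCGCGC. Mcm6, a subunit of the replicative helicase, was at 261, 258 and 306 CPM at E13.5 and 114 and 102 CPM at E15.5 (log2 fold change -1.35 ± 0.18, adjusted p = 2.79e-05), with 2 TTCGCGC and no TTTGAA in the window shown. All 3 were lower in both E15.5 samples than in every E13.5 sample.

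Genes of radial glia mostly fell. Of the list, 4 of 18 rose, 13 fell and 1 did not pass the test (median -1.14). Sox2, which maintains the stem cell state, was at 186, 174 and 205 CPM at E13.5 and 67.9 and 66.2 CPM at E15.5 (log2 fold change -1.49 ± 0.15, adjusted p = 4.24e-06). Sox9, its partner in radial glia, was at 205, 188 and 200.4 CPM at E13.5 and 63.6 and 58.1 CPM at E15.5 (log2 fold change -1.70 ± 0.10, adjusted p = 1.03e-07). Pax6, the dorsal progenitor factor, was at 195, 172 and 210.2 CPM at E13.5 and 93.9 and 85.4 CPM at E15.5 (log2 fold change -1.10 ± 0.13, adjusted p = 1.27e-05). Nes (nestin), the intermediate filament of radial glia, was at 1037, 1203 and 1294 CPM at E13.5 and 485 and 446 CPM at E15.5 (log2 fold change -1.34 ± 0.11, adjusted p = 1.21e-06). Id4, which keeps progenitors from differentiating, was at 516, 485 and 563 CPM at E13.5 and 99.9 and 81.1 CPM at E15.5 (log2 fold change -2.53 ± 0.20, adjusted p = 7.97e-07). Each of these was lower in both E15.5 samples than in any E13.5 sample. The members that rose were Fabp7 (0.69 ± 0.17), Slc1a3 (0.34 ± 0.11), Ptprz1 and Tnc; Fabp7 was named after its value was seen. Slc1a3 (GLAST) is a glutamate transporter that astrocytes keep, and its call was lost without E13.5 replicate 1 (adjusted p = 0.0639) or the summed E15.5 pair (adjusted p = 0.237). Ptprz1, a receptor phosphatase of radial glia, was at 151, 186 and 179.6 CPM at E13.5 and 660.3 and 714 CPM at E15.5 (log2 fold change 1.996 ± 0.12, adjusted p = 8.89e-08). Tnc (tenascin-C), a matrix glycoprotein of the ventricular zone, was at 5.45, 6.80 and 3.21 CPM at E13.5 and 196 and 274 CPM at E15.5 (log2 fold change 5.51 ± 0.36, adjusted p = 1.65e-07), a 45.5-fold fitted difference; the R and L libraries of the pair held 277 and 267 CPM.

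**Figure D2:**
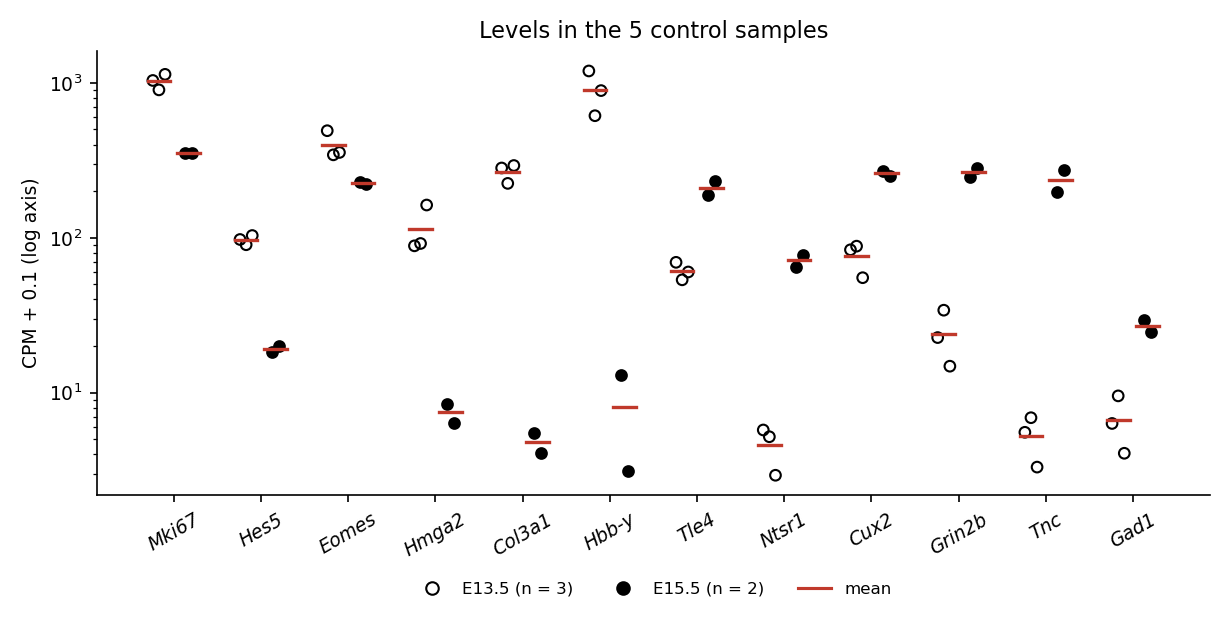
CPM (log axis, 0.1 added) of 12 genes in the 5 control samples; each point is a sample, open circles E13.5 (n = 3) and filled circles E15.5 (n = 2), and the bars are the means. Mki67, Hes5, Eomes, Hmga2, Col3a1 and Hbb-y are lower in both E15.5 samples than in every E13.5 sample, and Tle4, Ntsr1, Cux2, Grin2b, Tnc and Gad1 are higher.

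Notch signalling keeps radial glia dividing: ligands on newborn neurons and intermediate progenitors activate receptors on their neighbours, which then express Hes genes. Of the 15 genes of this list, 14 fell and 1 rose (median -1.09). Among ligands, Dll1 was at 189, 187 and 196 CPM at E13.5 and 62.2 and 61.6 CPM at E15.5 (log2 fold change -1.62 ± 0.13, adjusted p = 7.34e-07). Dll3 was at 59.0, 35.9 and 44.2 CPM at E13.5 and 15.2 and 12.6 CPM at E15.5 (log2 fold change -1.75 ± 0.21, adjusted p = 1.44e-05). Among receptors, Notch1 was at 543, 472 and 539 CPM at E13.5 and 306 and 301 CPM at E15.5 (log2 fold change -0.77 ± 0.086, adjusted p = 8.79e-06). Notch3 was at 232, 215 and 256 CPM at E13.5 and 78.9 and 74.9 CPM at E15.5 (log2 fold change -1.61 ± 0.10, adjusted p = 1.65e-07). The target Hes1 was at 65.6, 51.9 and 56.9 CPM at E13.5 and 12.2 and 15.1 CPM at E15.5 (log2 fold change -2.07 ± 0.20, adjusted p = 2.87e-06). Hes5 was at 97.4, 90.1 and 103 CPM at E13.5 and 18.2 and 19.9 CPM at E15.5 (log2 fold change -2.34 ± 0.20, adjusted p = 1.26e-06). Hey1 was at 125, 109 and 117 CPM at E13.5 and 28.4 and 27.9 CPM at E15.5 (log2 fold change -2.06 ± 0.15, adjusted p = 4.82e-07). Ligands, receptors and targets therefore all stood lower at E15.5 with no overlap, and the log2 fold changes of the 3 targets ran from -2.34 to -2.06. Of the exons of Hes5, 31.8% of the bases are shared with another annotated gene, so its counts may include reads of that gene. The member that rose was Numbl (0.34 ± 0.12), a relative of the Notch inhibitor Numb, named after its value was seen; its call was lost whichever of the 5 control samples was left out (adjusted p from 0.0503 to 0.142).

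Of the Wnt signalling list, 2 of 15 rose, 10 fell and 3 did not pass the test (median -0.93). Tcf7l1, a transcriptional repressor of Wnt targets, was at 137, 112 and 144 CPM at E13.5 and 20.8 and 19.3 CPM at E15.5 (log2 fold change -2.71 ± 0.20, adjusted p = 3.95e-07). Lef1, an activator at the same sites, was at 30.6, 29.1 and 31.2 CPM at E13.5 and 7.61 and 7.38 CPM at E15.5 (log2 fold change -2.01 ± 0.17, adjusted p = 9.77e-07), and the receptor Fzd8 was at 152, 132 and 177 CPM at E13.5 and 52.4 and 52.3 CPM at E15.5 (log2 fold change -1.55 ± 0.14, adjusted p = 1.73e-06). Axin2, a feedback target of the pathway, was at 46.6, 42.7 and 57.2 CPM at E13.5 and 27.8 and 31.7 CPM at E15.5 (log2 fold change -0.71 ± 0.13, adjusted p = 0.000527). These 4 genes were lower in both E15.5 samples. The secreted Wnt modulator Sfrp1, a marker of early cortical progenitors, fell too (-0.999 ± 0.17).

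Intermediate progenitor genes fell. Of the list, 1 of 13 rose, 12 fell and 0 did not pass the test (median -1.09). Neurog1 and Neurog2 are the proneural factors of the dorsal forebrain: Neurog1 was at 53.2, 35.1 and 38.2 CPM at E13.5 and 11.6 and 7.38 CPM at E15.5 (log2 fold change -2.19 ± 0.28, adjusted p = 2.31e-05). Neurog2 was at 423, 395 and 431 CPM at E13.5 and 189 and 190.0 CPM at E15.5 (log2 fold change -1.14 ± 0.071, adjusted p = 1.2e-07). Eomes (Tbr2), the defining factor of these cells, was at 491, 343 and 355 CPM at E13.5 and 229 and 221 CPM at E15.5 (log2 fold change -0.82 ± 0.13, adjusted p = 0.000137). All 3 were lower in both E15.5 samples. Btg2 (-1.24 ± 0.10) and Gadd45g (-1.49 ± 0.10), which slow division as cells commit, fell as well. The member that rose was Insm1 (0.45 ± 0.091), a factor that drives the formation of basal progenitors; it was at 239, 253 and 211 CPM at E13.5 and 326 and 315 CPM at E15.5. Eomes and Insm1 were named after their values were seen.

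Genes that mark young stem cells fell. Of 10 tested genes of early progenitor timing, 6 fell, 0 rose and 4 did not pass the test (median -1.19). Hmga2, a chromatin protein that sustains the renewal of young neural stem cells, was at 88.6, 91.8 and 163 CPM at E13.5 and 8.41 and 6.32 CPM at E15.5 (log2 fold change -3.98 ± 0.52, adjusted p = 3.12e-05), 15.8-fold lower at E15.5 in the fit. Lin28b, which blocks the maturation of let-7 microRNAs, was at 4.68, 5.48 and 8.69 CPM at E13.5 and 1.40 and 1.52 CPM at E15.5 (log2 fold change -2.08 ± 0.39, adjusted p = 0.000555). Sall4, a stem cell factor, was at 7.79, 10.01 and 14.9 CPM at E13.5 and 2.202 and 1.99 CPM at E15.5 (log2 fold change -2.38 ± 0.48, adjusted p = 0.0009). The mRNA-binding proteins Igf2bp1 (-0.95 ± 0.11), Igf2bp2 (-1.26 ± 0.18) and Igf2bp3 (-0.84 ± 0.083) fell as well. Lin28a, one of the 4 that did not pass the test, had 0 counts in the controls at both ages and so held no value to compare between them.

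Factors linked to the later switch to glia moved in both directions. Of the list, 2 of 9 rose, 3 fell and 4 did not pass the test (median 0.015). Nfix, a nuclear factor I protein that promotes maturation and glial fate, was at 504, 638 and 377 CPM at E13.5 and 1677 and 1805 CPM at E15.5 (log2 fold change 1.78 ± 0.23, adjusted p = 2.44e-05). Nfib, its relative, was at 759, 822 and 663 CPM at E13.5 and 1383 and 1317 CPM at E15.5 (log2 fold change 0.85 ± 0.16, adjusted p = 0.000466). Nfia, the third member examined, was at 337, 341 and 294 CPM at E13.5 and 362 and 293 CPM at E15.5 (log2 fold change 0.015 ± 0.12, adjusted p = 0.932), with overlapping samples. Nfix and Nfib were above all E13.5 samples at E15.5, while Fgfr3 (-1.48 ± 0.15), which is also expressed in progenitors, fell. Zbtb20 was at 65.3, 55.7 and 74.4 CPM at E13.5 and 142 and 157 CPM at E15.5; its fitted rise did not pass the test in the fit over all genotypes (adjusted p = 0.292) and did with the control samples alone (adjusted p = 0.000300).

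Genes of cortical projection neurons rose. Of the layer 6 list, 8 of 9 rose, 0 fell and 1 did not pass the test (median 1.78). Tle4, a corepressor of corticothalamic neurons, was at 69.3, 53.4 and 60.1 CPM at E13.5 and 188 and 231 CPM at E15.5 (log2 fold change 1.78 ± 0.13, adjusted p = 4.98e-07). Ntsr1, the neurotensin receptor used to mark corticothalamic neurons, was at 5.65, 5.10 and 2.83 CPM at E13.5 and 65.1 and 77.5 CPM at E15.5 (log2 fold change 3.98 ± 0.22, adjusted p = 8.25e-08). Hs3st4, a heparan sulfate sulfotransferase, was at 1.56, 7.18 and 3.02 CPM at E13.5 and 98.7 and 116 CPM at E15.5 (log2 fold change 4.76 ± 0.41, adjusted p = 3.25e-06). Grik3, a kainate receptor subunit, was at 41.1, 53.3 and 16.4 CPM at E13.5 and 378 and 339.5 CPM at E15.5 (log2 fold change 3.28 ± 0.50, adjusted p = 0.00011). In all 4 the E15.5 samples lay above every E13.5 sample. Sox5 (1.29 ± 0.22), Foxp2 (1.42 ± 0.27), Zfpm2 (0.97 ± 0.18) and Syt6 (3.11 ± 0.40) rose too. Tbr1, the factor that specifies layer 6, was the member with no call: it was at 311, 418 and 308 CPM at E13.5 and 434 and 425 CPM at E15.5 (log2 fold change 0.31 ± 0.14, adjusted p = 0.0872), and it passed the test without E13.5 replicate 2 (log2 fold change 0.47, adjusted p = 0.0104). Leaving out any other control sample gave no call on Tbr1.

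Of the layer 5 list, 5 of 8 rose, 0 fell and 3 did not pass the test (median 0.63). Fezf2, the selector of subcerebral neurons, was at 156, 174 and 168 CPM at E13.5 and 257 and 235 CPM at E15.5 (log2 fold change 0.57 ± 0.11, adjusted p = 0.000788). Bcl11b (Ctip2), which guides their axons, was at 191, 328 and 149 CPM at E13.5 and 324 and 333 CPM at E15.5 (log2 fold change 0.56 ± 0.26, adjusted p = 0.0873); its highest E13.5 value, in replicate 2, reached the E15.5 range, and without that replicate it passed the test (log2 fold change 0.95, adjusted p = 0.00187). Leaving out any other control sample gave no call on Bcl11b. Bcl11a, its paralog, was at 428, 525 and 509 CPM at E13.5 and 747 and 748 CPM at E15.5 (log2 fold change 0.62 ± 0.12, adjusted p = 0.000655). Ldb2, a cofactor of LIM proteins, was at 10.3, 10.01 and 8.31 CPM at E13.5 and 50.8 and 54.6 CPM at E15.5 (log2 fold change 2.46 ± 0.18, adjusted p = 4.02e-07). Bhlhe22, a repressor of postmitotic projection neurons, was at 98.6, 81.6 and 93.5 CPM at E13.5 and 251 and 281 CPM at E15.5 (log2 fold change 1.55 ± 0.25, adjusted p = 0.00016). Bcl11a, Ldb2 and Bhlhe22 were above all E13.5 samples at E15.5.

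Of the upper layer list, 10 of 14 rose, 1 fell and 3 did not pass the test (median 1.68). Cux2, a homeodomain factor of the upper layers and of intermediate progenitors, was at 83.6, 88.2 and 55.2 CPM at E13.5 and 269.6 and 252 CPM at E15.5 (log2 fold change 1.78 ± 0.23, adjusted p = 2.33e-05). The POU factors Pou3f1 (2.24 ± 0.28) and Pou3f2 (1.85 ± 0.10) rose, as did Rorb, a layer 4 factor (4.68, 9.25 and 5.48 CPM at E13.5 and 26.8 and 36.6 CPM at E15.5; log2 fold change 2.30 ± 0.24, adjusted p = 5.27e-06). Unc5d, a netrin receptor of migrating upper-layer neurons, was at 38.8, 37.96 and 24.6 CPM at E13.5 and 148 and 139 CPM at E15.5 (log2 fold change 2.09 ± 0.26, adjusted p = 2.07e-05). The 4 factors and the receptor had no overlap between ages. Plxnd1, a semaphorin receptor that is also expressed in endothelium, was the member that fell, at 237, 241 and 205 CPM at E13.5 and 76.5 and 78.4 CPM at E15.5 (log2 fold change -1.55 ± 0.19, adjusted p = 1.62e-05).

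The earliest neurons of the cortex, Cajal-Retzius cells and the subplate, gave mixed results. Of the Cajal-Retzius list, 2 of 9 rose, 3 fell and 4 did not pass the test (median -0.22). Reln, the secreted protein that directs layering, was at 219, 302 and 255 CPM at E13.5 and 449 and 479 CPM at E15.5 (log2 fold change 0.84 ± 0.14, adjusted p = 0.000179). Ndnf, a secreted protein of the marginal zone, was at 1.75, 2.83 and 2.27 CPM at E13.5 and 23.6 and 28.7 CPM at E15.5 (log2 fold change 3.51 ± 0.29, adjusted p = 9.5e-07). Ebf2, a factor of Cajal-Retzius cells, was at 10.7, 5.48 and 10.8 CPM at E13.5 and 1.40 and 1.40 CPM at E15.5 (log2 fold change -2.66 ± 0.53, adjusted p = 0.000915). Trp73, which defines those from the hem, was at 17.5, 17.9 and 21.9 CPM at E13.5 and 13.2 and 19.2 CPM at E15.5 (log2 fold change -0.22 ± 0.21, adjusted p = 0.415). Reln and Ndnf were thus higher at E15.5, Ebf2 lower, and Trp73 overlapped. Of the subplate list, 1 of 6 rose, 2 fell and 3 did not pass the test. Nr4a2 was at 24.9, 26.1 and 43.1 CPM at E13.5 and 32.2 and 30.7 CPM at E15.5 (log2 fold change 0.002 ± 0.24, adjusted p = 0.996), with overlapping samples, and Nxph4 (-0.83 ± 0.13) and Lpar1 (-0.97 ± 0.15) fell. The potassium channel subunit Kcnab1 had 3 counts over the E13.5 samples and 161 over those at E15.5, a ratio of 62.3 (95% exact interval 20.9 to 305, counting error only).

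Genes that all neurons share rose. Of the pan-neuronal list, 12 of 17 rose, 1 fell and 4 did not pass the test (median 1.14). Dcx (doublecortin), of migrating neurons, was at 517, 536 and 393 CPM at E13.5 and 1315 and 1277 CPM at E15.5 (log2 fold change 1.43 ± 0.17, adjusted p = 1.16e-05). Map2, of dendrites, was at 552, 624 and 349 CPM at E13.5 and 1334 and 1399.7 CPM at E15.5 (log2 fold change 1.43 ± 0.22, adjusted p = 0.000106). Stmn2, which regulates microtubules in growth cones, was at 158, 203 and 156 CPM at E13.5 and 564 and 641 CPM at E15.5 (log2 fold change 1.81 ± 0.15, adjusted p = 1.18e-06), and the neurofilament protein Ina was at 187, 245 and 182 CPM at E13.5 and 685 and 634 CPM at E15.5 (log2 fold change 1.69 ± 0.20, adjusted p = 1.38e-05). All 4 were higher in both E15.5 samples. Slc17a6, the vesicular glutamate transporter of immature neurons, was the member that fell (-0.53 ± 0.13), a call lost without E15.5 replicate 1 (adjusted p = 0.0513); it was named after its value was seen. The 10 called genes that gained most mean CPM were Cntn2, Tuba1a, Tubb2b, Dpysl3, Nfix, Tubb3, Map1b, Enc1, Ttc28 and Sptan1. Of these, Tuba1a was at 2480.2, 3048 and 2843 CPM at E13.5 and 4923 and 5061 CPM at E15.5, Cntn2 (TAG-1, an axonal adhesion protein) at 578, 863 and 461 CPM at E13.5 and 2282 and 2134 CPM at E15.5, and Dpysl3 (CRMP4, a cytoskeletal protein of growing axons) at 949, 1079.7 and 858 CPM at E13.5 and 2310.4 and 2629 CPM at E15.5. Tuba1a and Tuba1b have near-identical sequences, and 26.2% and 27.4% of their exonic bases lie in another annotated gene, so the split of reads between them is uncertain.

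Synaptic genes rose in both compartments. Of the presynaptic list, 16 of 22 rose, 1 fell and 5 did not pass the test (median 1.299). Snap25, a SNARE protein of vesicle release, was at 27.9, 42.1 and 25.7 CPM at E13.5 and 181 and 195 CPM at E15.5 (log2 fold change 2.56 ± 0.24, adjusted p = 2.2e-06). Syn1, a vesicle phosphoprotein, was at 36.6, 38.7 and 35.5 CPM at E13.5 and 131 and 144 CPM at E15.5 (log2 fold change 1.90 ± 0.19, adjusted p = 4.36e-06). Cplx1, which clamps release, was at 14.6, 21.9 and 14.9 CPM at E13.5 and 89.3 and 97.5 CPM at E15.5 (log2 fold change 2.44 ± 0.23, adjusted p = 2.31e-06). Rims1, an active zone scaffold, was at 3.90, 4.15 and 2.08 CPM at E13.5 and 17.8 and 32.1 CPM at E15.5 (log2 fold change 2.90 ± 0.36, adjusted p = 1.79e-05). None of these overlapped between ages. Of the postsynaptic list, 19 of 21 rose, 1 fell and 1 did not pass the test (median 1.35). Grin2b, the NMDA receptor subunit of young neurons, was at 22.6, 34.0 and 14.7 CPM at E13.5 and 248 and 280.2 CPM at E15.5 (log2 fold change 3.47 ± 0.38, adjusted p = 7.76e-06). Gria2, an AMPA receptor subunit, was at 257, 325 and 253 CPM at E13.5 and 924 and 984 CPM at E15.5 (log2 fold change 1.78 ± 0.15, adjusted p = 9.59e-07). Camk2b, a kinase of spines, was at 27.1, 41.2 and 17.6 CPM at E13.5 and 239 and 241 CPM at E15.5 (log2 fold change 3.07 ± 0.25, adjusted p = 9.14e-07). Shank1, a scaffold of the postsynaptic density, was at 68.8, 57.2 and 53.1 CPM at E13.5 and 394 and 367 CPM at E15.5 (log2 fold change 2.67 ± 0.30, adjusted p = 8.33e-06). All 4 were above every E13.5 sample at E15.5. The postsynaptic member that fell was Camk2a, named after its value was seen, at 31.2, 30.4 and 55.5 CPM at E13.5 and 21.2 and 16.2 CPM at E15.5 (log2 fold change -1.08 ± 0.42, adjusted p = 0.0484). Its call was lost under another scaling (RLE, adjusted p = 0.0504) and without E13.5 replicate 3, E15.5 replicate 1 or the summed E15.5 pair (adjusted p = 0.189, 0.0961 and 0.251).

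GABA excites immature neurons because they hold much chloride, taken up by Slc12a2 and later removed by Slc12a5. Of 13 tested genes for GABA receptors and chloride transporters, 11 rose, 1 fell and 1 did not pass the test (median 1.74). Gabbr2, a subunit of the metabotropic receptor, was at 5.26, 3.59 and 1.89 CPM at E13.5 and 26.8 and 29.6 CPM at E15.5 (log2 fold change 2.98 ± 0.34, adjusted p = 1.05e-05). Slc12a5 rose, from 9.93, 11.9 and 11.3 CPM to 18.01 and 15.6 CPM (log2 fold change 0.59 ± 0.13, adjusted p = 0.00226). The member that fell was Slc12a2, from 67.4, 79.3 and 73.3 CPM to 62.2 and 57.6 CPM (log2 fold change -0.29 ± 0.12, adjusted p = 0.0485). Both were named after their values were seen. The call on Slc12a2 was lost in 8 of 11 alternative fits (adjusted p from 0.0519 to 0.254), among them each of 4 left-out samples (E13.5 replicates 2 and 3, E15.5 replicate 1 and the summed pair), while its direction stayed the same. Every receptor subunit that passed the test was higher at E15.5.

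Of the voltage-gated channel list, 16 of 22 rose, 0 fell and 6 did not pass the test (median 1.55). The sodium channel Scn2a1 was at 6.82, 14.9 and 9.26 CPM at E13.5 and 67.1 and 104 CPM at E15.5 (log2 fold change 3.05 ± 0.35, adjusted p = 1.06e-05). Scn3a, the main form of the embryonic brain, was at 22.6, 24.7 and 22.9 CPM at E13.5 and 99.7 and 118 CPM at E15.5 (log2 fold change 2.22 ± 0.21, adjusted p = 2.37e-06). The potassium channel Kcnq3, which carries the M current, was at 50.5, 80.1 and 42.5 CPM at E13.5 and 289 and 242 CPM at E15.5 (log2 fold change 2.202 ± 0.36, adjusted p = 0.00018). The calcium channel Cacna1e was at 51.2, 74.2 and 44.2 CPM at E13.5 and 374 and 394 CPM at E15.5 (log2 fold change 2.76 ± 0.29, adjusted p = 5.7e-06). Both E15.5 samples were above every E13.5 sample for these 4 genes. Immediate early genes, which respond to neuronal activity and to stress, gave no call upwards: of 8 tested, 0 rose, 3 fell (Jun, Egr1 and Ier2) and 5 did not pass the test.

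Axon guidance genes moved in both directions. Of the list, 18 of 37 rose, 8 fell and 11 did not pass the test (median 0.37). Robo3, a receptor that lets axons cross the midline, had 389 counts over the E13.5 samples (19.1, 17.6 and 37.4 CPM) and 0 over those at E15.5, at least 112-fold lower against a floor of 3 counts over the group. Its relative Robo2 rose (128, 179 and 144 CPM at E13.5 and 463 and 466 CPM at E15.5; log2 fold change 1.63 ± 0.18, adjusted p = 7.76e-06). The ligand Slit2 was at 36.2, 40.2 and 45.0 CPM at E13.5 and 10.8 and 11.2 CPM at E15.5 (log2 fold change -1.87 ± 0.11, adjusted p = 9.03e-08). The receptor kinase Ephb1 was at 17.5, 19.6 and 18.9 CPM at E13.5 and 87.1 and 96.4 CPM at E15.5 (log2 fold change 2.29 ± 0.14, adjusted p = 1.2e-07), the ephrin Efnb1 fell (-0.93 ± 0.10), and the semaphorin Sema3f rose (1.90 ± 0.20). Among RNA-binding proteins of neurons, 12 of 21 rose, 3 fell and 6 did not pass the test (median 0.53). Rbfox1, a splicing factor of maturing neurons, was at 17.7, 24.4 and 5.10 CPM at E13.5 and 136 and 153 CPM at E15.5 (log2 fold change 3.20 ± 0.40, adjusted p = 2.27e-05), while Ptbp1, which represses neuronal exons in progenitors, was at 304, 334 and 333 CPM at E13.5 and 165 and 154 CPM at E15.5 (log2 fold change -1.02 ± 0.14, adjusted p = 4.15e-05) and was named after its value was seen.

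Genes of the brain's own extracellular matrix rose. Of these, 7 of 8 rose, 1 fell and 0 did not pass the test (median 2.02). Ncan (neurocan) was at 304, 339.9 and 276 CPM at E13.5 and 621 and 642 CPM at E15.5 (log2 fold change 1.04 ± 0.16, adjusted p = 9.04e-05). Tnr (tenascin-R) was at 7.01, 11.7 and 6.61 CPM at E13.5 and 55.2 and 65.2 CPM at E15.5 (log2 fold change 2.83 ± 0.35, adjusted p = 1.69e-05). Cspg5 (neuroglycan C) was at 15.4, 21.9 and 14.4 CPM at E13.5 and 64.5 and 76.7 CPM at E15.5 (log2 fold change 2.04 ± 0.23, adjusted p = 9.75e-06). Bcan (brevican), which astrocytes also make, was at 12.5, 17.4 and 6.04 CPM at E13.5 and 47.6 and 66.6 CPM at E15.5 (log2 fold change 2.26 ± 0.42, adjusted p = 0.00053). These proteoglycans and tenascins were higher in both E15.5 samples. Hapln1, a link protein, was the member that fell, from 31 counts to 0.

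Markers of cells that enter the cortex from elsewhere also shifted. Of the GABAergic interneuron list, 12 of 18 rose, 2 fell and 4 did not pass the test (median 1.41), and the summed level was 263, 297 and 245 CPM at E13.5 and 494 and 548 CPM at E15.5. Gad1, which makes GABA, was at 6.23, 9.44 and 3.97 CPM at E13.5 and 29.2 and 24.6 CPM at E15.5 (log2 fold change 2.03 ± 0.39, adjusted p = 0.000625). Lhx6, the factor of interneurons from the medial ganglionic eminence, was at 13.6, 13.8 and 6.61 CPM at E13.5 and 66.7 and 69.9 CPM at E15.5 (log2 fold change 2.59 ± 0.34, adjusted p = 3.32e-05). Npy, a peptide of one of their classes, was at 0.974, 0.944 and 1.70 CPM at E13.5 and 10.8 and 10.5 CPM at E15.5 (log2 fold change 3.12 ± 0.32, adjusted p = 5.33e-06). The E15.5 samples held more of each. Their part in the rise of the synaptic and channel genes was not tested. Sp8, which cortical progenitors express too, was at 13.6, 15.1 and 16.4 CPM at E13.5 and 4.604 and 6.91 CPM at E15.5 (log2 fold change -1.35 ± 0.36, adjusted p = 0.00727); its call was lost without E15.5 replicate 1 (adjusted p = 0.0705). Of 10 tested striatal genes, 2 rose, 3 fell and 5 did not pass the test, and the summed level of the list was 479, 470.1 and 428 CPM at E13.5 and 478 and 473 CPM at E15.5, with overlapping ages. Ppp1r1b, which deep-layer cortical neurons express too, was at 18.1, 28.7 and 12.1 CPM at E13.5 and 83.3 and 88.0 CPM at E15.5 (log2 fold change 2.12 ± 0.38, adjusted p = 0.000431), while Isl1 and Tac1 were at or near 0. Of the thalamus list, 3 of 4 tested fell, among them Lef1, which is also counted under Wnt signalling, and 0 rose. Lhx9, also expressed in the medial pallium, was at 41.5, 24.9 and 42.3 CPM at E13.5 and 1.20 and 2.22 CPM at E15.5 (log2 fold change -4.30 ± 0.42, adjusted p = 3.37e-06).

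Glial genes moved in both directions. Of the astrocyte list, 5 of 12 rose, 2 fell and 5 did not pass the test (median 0.69). Of the 5 that rose, Slc1a3 is also counted under radial glia and Bcan under the extracellular matrix. Aldh1l1 was at 0.584, 0.378 and 0.378 CPM at E13.5 and 4.804 and 7.96 CPM at E15.5 (log2 fold change 3.83 ± 0.67, adjusted p = 0.000323). Clu was at 9.74, 10.6 and 7.93 CPM at E13.5 and 21.4 and 24.7 CPM at E15.5 (log2 fold change 1.296 ± 0.27, adjusted p = 0.00139). Gja1 (connexin 43), which radial glia share, was at 98.8, 83.9 and 99.4 CPM at E13.5 and 12.01 and 14.2 CPM at E15.5 (log2 fold change -2.83 ± 0.21, adjusted p = 4.87e-07). Aldh1l1 and Clu were higher and Gja1 lower in both E15.5 samples. Of the oligodendrocyte lineage list, 2 of 8 rose, 1 fell and 5 did not pass the test. Olig1 had 1 count over the E13.5 samples and 76 over those at E15.5, a ratio of 88.3 (95% exact interval 15.4 to 3532). Sox10 had 0 and 17 counts, and its call was lost without the summed E15.5 pair (adjusted p = 0.0683). Pdgfra, which meningeal and perivascular cells express too, was at 11.9, 12.7 and 10.4 CPM at E13.5 and 4.804 and 5.85 CPM at E15.5 (log2 fold change -1.11 ± 0.32, adjusted p = 0.0117); its call was lost without E15.5 replicate 1 (adjusted p = 0.0807).

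The summed level of meningeal transcripts stood apart between the ages in every sample, though not each gene of the list was called. Of the meninges list, 0 of 9 rose, 7 fell and 2 did not pass the test (median -4.91), and the summed level was 626, 563 and 586 CPM at E13.5 and 70.3 and 56.9 CPM at E15.5. Col3a1, a fibrillar collagen, was at 282, 224 and 293 CPM at E13.5 and 5.40 and 3.98 CPM at E15.5 (log2 fold change -5.86 ± 0.35, adjusted p = 8.89e-08). Col1a1 was at 98.8, 75.2 and 79.5 CPM at E13.5 and 2.202 and 3.16 CPM at E15.5 (log2 fold change -4.92 ± 0.40, adjusted p = 9.14e-07). Dcn (decorin) had 271 counts over the E13.5 samples and 3 over those at E15.5. Lum (lumican) had 316 and 0, at least 90.7-fold lower. The defining collagens were thus at 75.2 CPM or more in all 3 E13.5 samples and below 6 CPM in both E15.5 samples. The labels do not say whether the meninges were removed, and at E13.5 the share of meninges in the dissected tissue and the age of the cortex cannot be told apart. The part of the meninges in the fall of other genes was not tested.

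**Figure D3:**
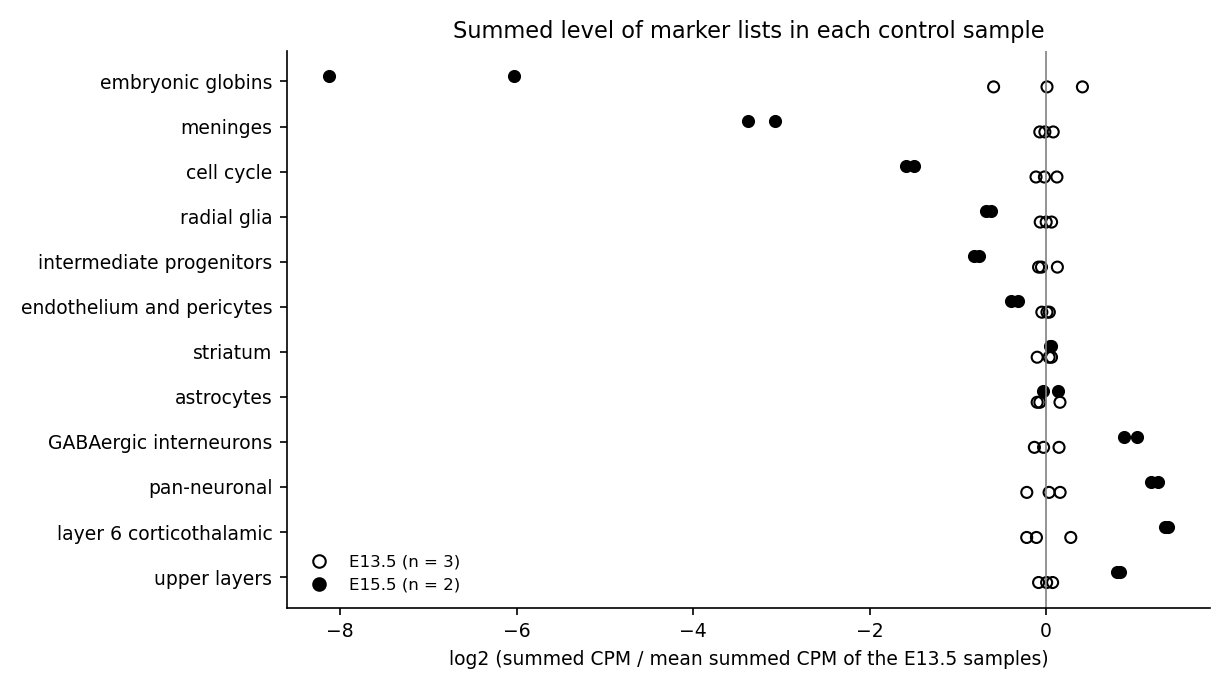
Summed CPM of the tested and untested members of 12 marker lists in each control sample, as log2 of the ratio to the mean of the 3 E13.5 samples; open circles E13.5, filled circles E15.5. Embryonic globins and meninges drop by more than 3 log2 units in both E15.5 samples, while cell cycle, radial glia and intermediate progenitor sums drop by less than 2 and neuronal sums rise.

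Part of the vascular genes fell. Of the endothelium and pericyte list, 1 of 16 rose, 6 fell and 9 did not pass the test (median -0.18). Cdh5, the adhesion protein of endothelial junctions, was at 53.6, 50.4 and 43.6 CPM at E13.5 and 18.8 and 16.3 CPM at E15.5 (log2 fold change -1.50 ± 0.19, adjusted p = 2.25e-05). Kdr, the main VEGF receptor, was at 75.4, 70.1 and 68.6 CPM at E13.5 and 31.6 and 36.3 CPM at E15.5 (log2 fold change -1.06 ± 0.15, adjusted p = 5.93e-05). Abcc9, a pericyte gene, was at 13.6, 11.9 and 13.2 CPM at E13.5 and 24.4 and 19.8 CPM at E15.5 (log2 fold change 0.77 ± 0.17, adjusted p = 0.00164). Of the microglia and macrophage list, 2 of 15 rose, 2 fell and 11 did not pass the test. P2ry12, a receptor of microglia, was at 2.53, 3.02 and 2.83 CPM at E13.5 and 8.41 and 9.02 CPM at E15.5 (log2 fold change 1.64 ± 0.25, adjusted p = 0.000103). Mrc1, a receptor of macrophages at the brain's borders, was at 7.21, 7.55 and 7.93 CPM at E13.5 and 0 and 0.468 CPM at E15.5 (log2 fold change -4.60 ± 0.76, adjusted p = 0.000195). P2ry12 was thus higher and Mrc1 lower at E15.5. Sall1, on the list as a microglial factor, is also expressed in neural progenitors, at 405, 399.6 and 476 CPM at E13.5 and 112 and 108 CPM at E15.5 (log2 fold change -1.95 ± 0.16, adjusted p = 8.99e-07). The embryonic beta-like globin Hbb-y was at 1193, 613 and 891 CPM at E13.5 and 13.01 and 3.04 CPM at E15.5 (log2 fold change -6.95 ± 0.63, adjusted p = 1.81e-06) and the embryonic alpha-like globin Hba-x at 263, 112 and 209.7 CPM at E13.5 and 3.40 and 0.937 CPM at E15.5 (log2 fold change -6.67 ± 0.64, adjusted p = 3.08e-06); neither overlapped between the ages.

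Most ribosomal protein genes fell, and genes of energy metabolism moved in both directions. Of 33 ribosomal protein genes, 22 fell, 0 rose and 11 did not pass the test (median -0.37). Rpl4 was at 1129, 1081 and 1100.3 CPM at E13.5 and 896 and 902 CPM at E15.5 (log2 fold change -0.29 ± 0.063, adjusted p = 0.00146). Rplp1 was at 513, 539 and 531 CPM at E13.5 and 364 and 339 CPM at E15.5 (log2 fold change -0.59 ± 0.093, adjusted p = 0.000143). The lowest log2 fold change of the list was that of Rpl11, at 9.35, 9.63 and 8.88 CPM at E13.5 and 3.20 and 3.16 CPM at E15.5 (log2 fold change -1.54 ± 0.28, adjusted p = 0.000395). Processed pseudogenes share reads with many of these genes. Of the glycolysis and hypoxia list, 4 of 18 rose, 8 fell and 6 did not pass the test (median -0.30). Pkm, the last enzyme of glycolysis, was at 1873, 1762 and 1982 CPM at E13.5 and 992 and 992 CPM at E15.5 (log2 fold change -0.92 ± 0.092, adjusted p = 3.96e-06). Hk2, the hexokinase of growing cells, was at 68.4, 48.0 and 73.3 CPM at E13.5 and 26.02 and 25.1 CPM at E15.5 (log2 fold change -1.31 ± 0.16, adjusted p = 1.54e-05). Pfkp was at 29.2, 39.5 and 33.8 CPM at E13.5 and 159.5 and 134 CPM at E15.5 (log2 fold change 2.10 ± 0.23, adjusted p = 8.45e-06). Hk1 was at 62.7, 63.1 and 65.0 CPM at E13.5 and 140.3 and 135 CPM at E15.5 (log2 fold change 1.11 ± 0.14, adjusted p = 2.18e-05). Eno2, the neuronal enolase, was at 16.4, 23.0 and 16.2 CPM at E13.5 and 51.8 and 49.8 CPM at E15.5 (log2 fold change 1.45 ± 0.16, adjusted p = 7.03e-06). Isozymes of the same step thus moved in opposite directions, Hk2 down and Hk1 up. Of 14 cholesterol synthesis genes, 5 fell, 1 rose and 8 did not pass the test, and of 13 p53 target and apoptosis genes 5 rose, 1 fell and 7 did not pass the test. Bbc3 (Puma), a trigger of cell death, was at 5.65, 9.25 and 8.12 CPM at E13.5 and 20.6 and 25.9 CPM at E15.5 (log2 fold change 1.603 ± 0.22, adjusted p = 4.6e-05). Bcl2, which prevents it, was at 25.7, 38.7 and 30.2 CPM at E13.5 and 53.4 and 53.04 CPM at E15.5 (log2 fold change 0.75 ± 0.17, adjusted p = 0.00257).

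**Figure D4:**
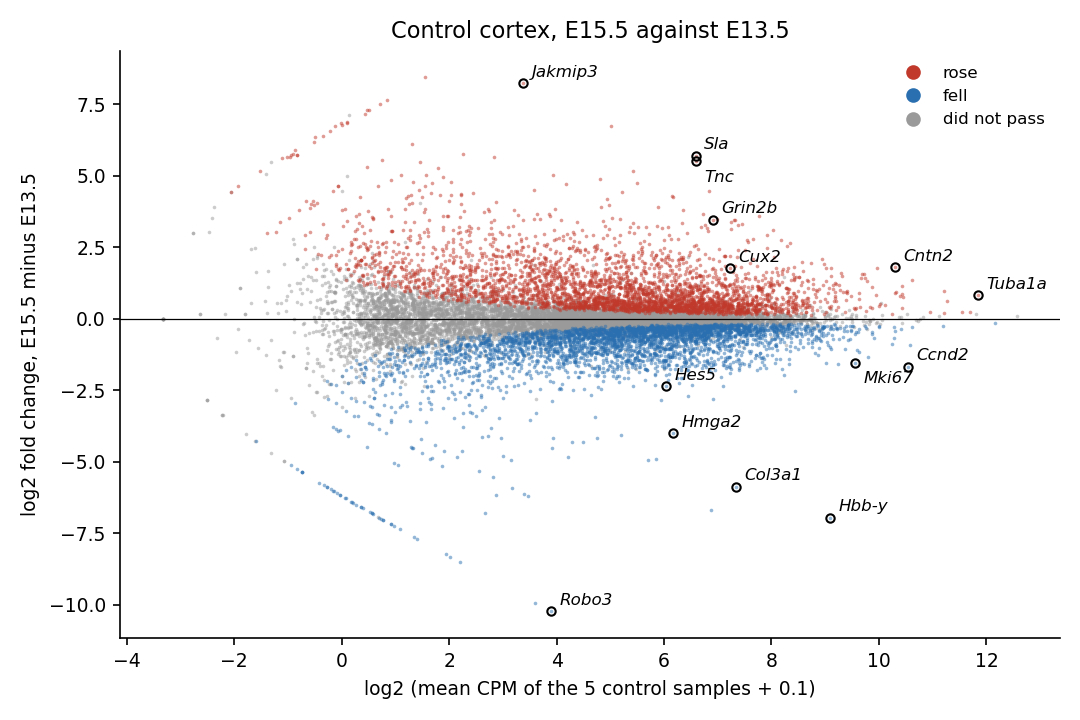
Log2 fold change (E15.5 minus E13.5, vertical axis) against mean level in the 5 control samples (log2 CPM, horizontal axis) for the 14947 genes tested; red points rose, blue points fell and grey points did not pass the test at an adjusted p of 0.05. Called genes lie on both sides of 0, with 3625 above and 3551 below.

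The genes with the steepest rise among those with at least 5 CPM and no overlap included 1700086L19Rik, Jakmip3, Olig1, Kcnab1, Sla, Abca8a, Tnc, Grip2, Caln1, Inhba, Podn, Rgs6 and Gm1043. 1700086L19Rik had 0 counts at E13.5 and 102 at E15.5, at least 39.5-fold higher. Jakmip3, a microtubule-binding protein of neurons, had 1 count and 354 counts, a ratio of 411 (95% exact interval 73.3 to 16284). Sla, an adaptor protein of immune receptors that is also used as a marker of deep-layer neurons, was at 2.14, 7.55 and 3.59 CPM at E13.5 and 243 and 225 CPM at E15.5 (log2 fold change 5.71 ± 0.35, adjusted p = 1.11e-07). Grip2, which binds AMPA receptors, was at 3.51, 2.08 and 3.02 CPM at E13.5 and 94.5 and 110.4 CPM at E15.5 (log2 fold change 5.15 ± 0.22, adjusted p = 1.58e-08). Rgs6, a regulator of G protein signals, was at 2.14, 3.59 and 0.945 CPM at E13.5 and 81.3 and 51.0 CPM at E15.5 (log2 fold change 4.87 ± 0.42, adjusted p = 1.27e-06). Caln1, a calcium-binding protein of neurons, was at 1.36, 1.70 and 0.189 CPM at E13.5 and 36.0 and 36.3 CPM at E15.5 (log2 fold change 5.04 ± 0.43, adjusted p = 1.27e-06). Sla, Grip2, Rgs6 and Caln1 thus went from at most 7.55 CPM in every E13.5 sample to at least 36.0 CPM in both E15.5 samples.

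The genes with the steepest fall by the same rule included Robo3, Lum, Acta2, Col6a6, Gja5, Hbb-y, Cyp1b1, Hba-x, Hbb-bh1, Cldn11, Dcn, Col6a1, Col3a1 and Cckar. Acta2 (smooth muscle actin), Col6a6 and Gja5 (connexin 40 of arteries) had 118, 104 and 98 counts at E13.5 and 0 at E15.5. Cldn11, a tight junction protein of the arachnoid and of myelin, went from 187 counts to 2, and Col6a1 from 231 to 3. Lum, Dcn and Col3a1 are meningeal markers of the list above and Hbb-y, Hba-x and Hbb-bh1 are embryonic globins, so 6 of the 15 come from the lists of the meninges and of embryonic red blood cells. Cckar, a cholecystokinin receptor, was at 12.5, 9.07 and 12.5 CPM at E13.5 and 0.600 and 0 CPM at E15.5, with 3 counts in all at E15.5. The 10 called genes that lost most mean CPM were Ccnd2, Hbb-y, Pkm, Nes, Mki67, Nedd4, Top2a, Hnrnpu, Tuba1b and Ckb. Nedd4, a ubiquitin ligase, was at 1692, 1683 and 1080.1 CPM at E13.5 and 698 and 926 CPM at E15.5 (log2 fold change -0.87 ± 0.32, adjusted p = 0.0352), and its call was lost without E13.5 replicate 1, E13.5 replicate 2, E15.5 replicate 1 or the summed E15.5 pair (adjusted p from 0.0638 to 0.224).

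The genes that rose were annotated as longer. Their gene span had a median of 33.3 kb, and that of the genes that fell 21.1 kb, against 21.5 kb for all genes tested. For genes changed at least 2-fold the medians were 36.9 kb and 23.5 kb. These are descriptions of the annotation of the called genes and were not tested.

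The change with age in controls was then set against that in the mutants, which asks where normal maturation depends on genotype. The interaction with Bcl11a-CKO passed the threshold for 12 genes (0.0803%), 7 with a higher change in controls (0.0468%) and 5 with a lower one (0.0335%), and that with Bcl11ab-DCKO for 579 genes (3.87%), 270 higher (1.81%) and 309 lower (2.07%). Titles of the E15.5 controls and of E15.5 Bcl11a-CKO all end in R or L, and those of E15.5 Bcl11ab-DCKO do not. At E15.5 this difference in titles cannot be told apart from the double mutant genotype. Of the 10 genes named for Bcl11a-CKO, Ryr3 and Nt5dc2 kept the call whichever of the 10 samples was left out, and the others lost it without 3 to 10 of them. Tle4 was at 69.3, 53.4 and 60.1 CPM at E13.5 and 188 and 231 CPM at E15.5 in controls, 64.6 ± 9.86 CPM at E13.5 and 93.7 ± 5.43 CPM at E15.5 in Bcl11a-CKO and 66.1 ± 4.84 CPM at E13.5 and 38.9 ± 2.33 CPM at E15.5 in Bcl11ab-DCKO (mean ± SD; n = 3 at E13.5 in each mutant, and at E15.5 n = 2 for Bcl11a-CKO and 3 for Bcl11ab-DCKO). The difference in its change, control minus mutant, was 1.25 ± 0.19, adjusted p = 0.026, for Bcl11a-CKO and 2.55 ± 0.18, adjusted p = 2.72e-06, for Bcl11ab-DCKO. Ryr3, a calcium release channel, was at 14.8, 14.5 and 14.5 CPM at E13.5 and 137 and 131 CPM at E15.5 in controls and at 42.0 ± 3.11 CPM at E13.5 and 109 ± 9.19 CPM at E15.5 in Bcl11a-CKO (difference 1.82 ± 0.21, adjusted p = 0.00321). Ryr3 thus started higher in the single mutant at E13.5 and rose less than in controls. Ndnf rose in controls too, with a difference of 2.72 ± 0.41, adjusted p = 0.0253, for Bcl11a-CKO. The calls on Tle4 and Ndnf against Bcl11a-CKO were each lost without 7 of the 10 samples (adjusted p up to 0.169), while the signs stayed the same.

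Of the genes with a lower change in controls than in Bcl11a-CKO, Slit2 fell in controls and was at 40.9 ± 2.70 CPM at E13.5 and 23.9 ± 2.05 CPM at E15.5 in Bcl11a-CKO (difference -1.09 ± 0.15, adjusted p = 0.0119). Nt5dc2 was at 269, 247 and 274 CPM at E13.5 and 94.7 and 95.8 CPM at E15.5 in controls and at 269 ± 23.5 CPM at E13.5 and 198 ± 7.63 CPM at E15.5 in Bcl11a-CKO (difference -1.03 ± 0.11, adjusted p = 0.00321). Cul7 (-0.60 ± 0.095, adjusted p = 0.0322), Eya1 (-1.71 ± 0.29, adjusted p = 0.049998) and Clmn (-1.61 ± 0.26, adjusted p = 0.0359) had differences of the same sign. Cul7 lost the call without 9 of the 10 samples and with no filter on low counts (adjusted p = 0.0552), Eya1 without 8 of them, under RLE scaling (0.0508), with no filter (0.0503) and with a block on the E13.5 title endings (0.0707), and Clmn without each of the 10. Pde1c and Galnt14 did not pass the test in controls (log2 fold change -0.11 ± 0.14 and -0.05 ± 0.17) and had differences of 1.21 ± 0.20, adjusted p = 0.0359, and 1.77 ± 0.25, adjusted p = 0.0122. In place of 12 genes, 2 passed without E15.5 Bcl11a-CKO replicate 1, 5 without its summed pair, 6 without E13.5 Bcl11a-CKO replicate 3, 4 without E15.5 control replicate 1 and 19 without E13.5 Bcl11a-CKO replicate 1, while DESeq2 called 64.

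**Figure D5:**
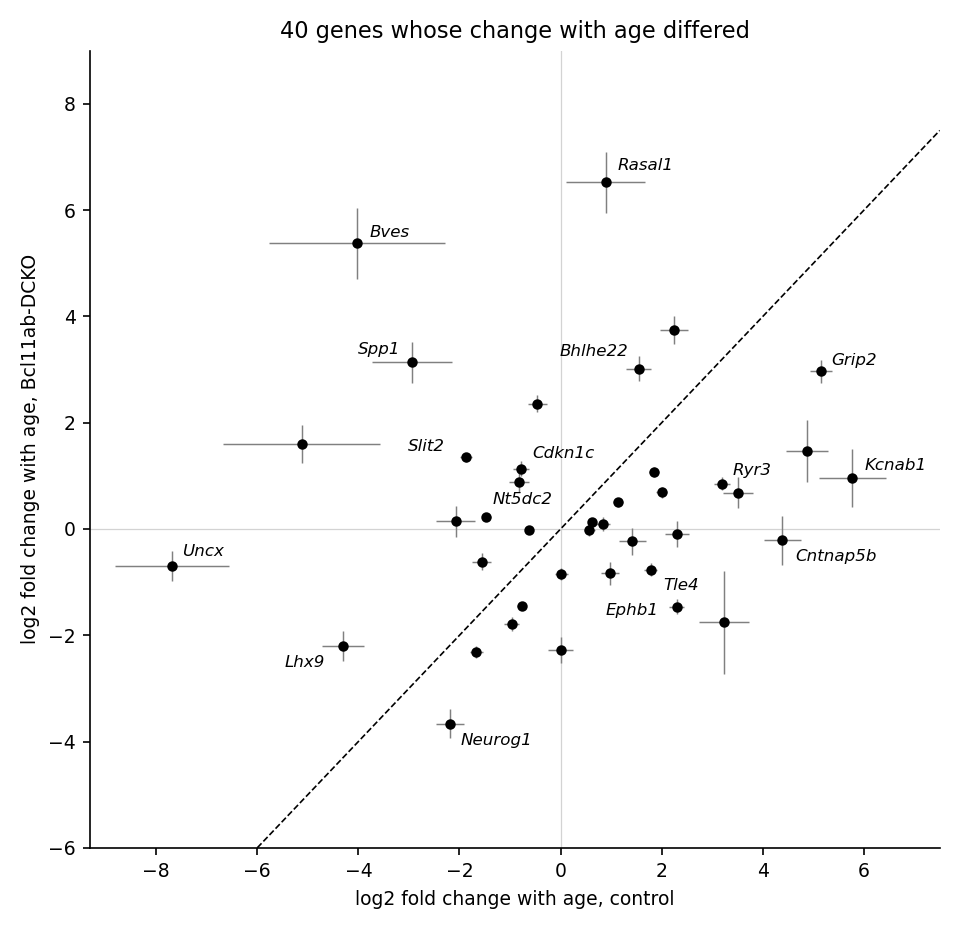
Log2 fold change with age (E15.5 minus E13.5) in control cortex (horizontal axis) and in Bcl11ab-DCKO cortex (vertical axis) for the genes named in the text whose change differed between the genotypes at an adjusted p of 0.05; bars are standard errors of the fit and the dashed line marks equal change. Genes below the line, such as Ephb1 and Tle4, rose more or fell less in controls, and genes above it, such as Slit2 and Nt5dc2, did the reverse.

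Ephb1 rose in controls and, in the double mutant, was at 32.8 ± 2.29 CPM at E13.5 and 11.9 ± 2.90 CPM at E15.5 (difference 3.75 ± 0.20, adjusted p = 2.16e-07). Kcnab1 had a difference of 4.81 ± 0.97, adjusted p = 0.0123, and was at 1.22 ± 0.618 CPM at E13.5 and 2.27 ± 0.692 CPM at E15.5 in the mutant. Cntnap5b, a neurexin-like adhesion protein, was at 0.584, 0.567 and 0.567 CPM at E13.5 and 14.6 and 10.4 CPM at E15.5 in controls and at 0.939 ± 0.365 CPM at E13.5 and 0.765 ± 0.495 CPM at E15.5 in the mutant (difference 4.602 ± 0.63, adjusted p = 0.000669). Hs3st3b1, a heparan sulfate sulfotransferase, had a difference of 4.99 ± 1.08, adjusted p = 0.0189. All 4 rose in controls, and Ephb1, Kcnab1 and Cntnap5b kept the call on the difference whichever of 11 samples was left out; Hs3st3b1 lost it without 2 of them (adjusted p up to 0.0952). Among those with a lower change in controls, the transcription factor Uncx had 67 counts at E13.5 and 0 at E15.5 in controls, against 21.7 ± 0.816 CPM at E13.5 and 13.4 ± 1.24 CPM at E15.5 in the mutant. Spp1 (osteopontin) was at 1.17, 1.51 and 1.13 CPM at E13.5 and 0.200 and 0.117 CPM at E15.5 in controls and at 0.988 ± 0.145 CPM at E13.5 and 8.84 ± 3.18 CPM at E15.5 in the mutant (difference -6.07 ± 0.84, adjusted p = 0.000761); this call was kept whichever sample was left out, while that on the fall in controls was lost without the summed E15.5 pair (adjusted p = 0.0908). Rasal1, Bves and Gm15208 had 10, 0 and 0 counts over the E15.5 controls and 12.1, 5.49 and 9.41 CPM on average in the E15.5 double mutants. The calls on these differences were lost without E13.5 control replicate 1 for Rasal1 (adjusted p = 0.424), without the summed E15.5 control pair for Uncx (adjusted p = 0.105) and without 2 and 4 of the samples for Bves and Gm15208. Without the summed E15.5 control pair or E15.5 control replicate 1, the double mutant comparison gave 295 and 309 genes in place of 579, and without E13.5 Bcl11ab-DCKO replicate 2 it gave 377. Genes that led the account of controls did not all pass the interaction test against the double mutant. The difference was 0.32 ± 0.20, adjusted p = 0.513, for Mki67 and -0.23 ± 0.19, adjusted p = 0.661, for Sox2. A difference that did not pass is not shown to be absent. Others passed it, with differences of both signs, among them Ccnd2 (0.65 ± 0.16), Notch1 (0.68 ± 0.11) and Lin28b (-2.22 ± 0.49).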

How the data were processed

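Total RNA from dissected, flash-frozen embryonic cortex was sequenced. The deposited table holds raw read counts per gene, and mm10 is the build listed in the submitters' processing notes, beside StringTie 1.3.0, HISAT2 2.0.4 and edgeR. Those notes state no roles, and no source used here gives the counting tool, its strand setting, the annotation or any filter. Tables of newborn cortex were not analysed here. Grouping followed the labels. Replicates 2 and 3 of the E15.5 controls, whose titles have the same number, were summed, as were replicates 2 and 3 of E15.5 Bcl11a-CKO, which gave 16 samples from 18 embryonic libraries.

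edgeR 4.0.16 (R 4.3.3) was fitted to all 16 samples in 6 groups after filterByExpr, with TMM scaling and the quasi-likelihood test; the contrast was E15.5 minus E13.5 in controls, and interactions compared it with each mutant. P-values were Benjamini-Hochberg adjusted over all genes tested. The standard error is the log2 fold change divided by the square root of F. A count of 0 over a group was given a floor of 3 counts, and intervals (95%, exact) cover counting error only. The pipeline was tested on simulated data. DESeq2 1.42.0 and the other alternatives are given in the closing section. Overlaps of exons came from GENCODE vM21, and promoters from RefSeq GRCm38.p6.

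Genes were named by rule: the 15 called genes with the steepest rise and the 15 with the steepest fall (mean of 5 CPM or more in the higher age, ages not overlapping), the 10 that gained and the 10 that lost most CPM, up to 8 members of each of 43 gene lists, and up to 5 genes of each sign for each interaction. The members and lists were chosen with earlier results of these data known. Some genes that this rule names are not reported here.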

Additional observations from a re-analysis of the deposited data

Results flagged for a closer look

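Genes named above whose change from E13.5 to E15.5 differed between the control and a mutant cortex are listed with the difference (control change minus mutant change, log2), tested as an interaction in edgeR's quasi-likelihood test over all genes. Both mutant comparisons share the control samples. Against Bcl11a-CKO, the difference was 1.25 for Tle4, 1.82 for Ryr3, 2.72 for Ndnf, 1.21 for Pde1c and 1.77 for Galnt14, so each rose more, or fell less, in controls. It was -1.09 for Slit2, -1.03 for Nt5dc2, -0.60 for Cul7, -1.71 for Eya1 and -1.61 for Clmn, with the opposite sign. Adjusted p ran from 0.00321 to 0.049998 over these 10 genes. Ryr3 and Nt5dc2 kept the call whichever sample was left out.

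The genes named above that differed from Bcl11ab-DCKO had differences of both signs. Among projection neuron genes, the difference was 2.55 for Tle4, 1.81 for Zfpm2, 1.65 for Foxp2, 0.60 for Fezf2, 2.39 for Rorb, 0.78 for Pou3f2, -1.47 for Bhlhe22, -1.50 for Pou3f1 and -0.94 for Plxnd1. Among subplate and Cajal-Retzius genes, the difference was 2.28 for Nr4a2, 0.82 for Lpar1, 4.81 for Kcnab1, 0.74 for Reln and 2.83 for Ndnf. Among genes of axons, receptors and the neuronal cytoskeleton, the difference was 3.75 for Ephb1, 2.18 for Grip2, 2.34 for Ryr3, 3.40 for Rgs6, 4.602 for Cntnap5b, 0.50 for Map1b and 0.64 for Tubb3. Among progenitor and glial genes, the difference was 0.65 for Ccnd2, 0.68 for Notch1, 1.48 for Neurog1, 0.87 for Nfia and 1.31 for Ptprz1. Hs3st3b1, a sulfotransferase, had a difference of 4.99. Adjusted p for these genes ran from 2.16e-07 to 0.048.

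Other genes named above had a lower change in controls than in Bcl11ab-DCKO. Among other transcription regulators, the difference was -2.10 for Lhx9 and -1.71 for Eya1. Among signalling, guidance and cell cycle genes, the difference was -3.22 for Slit2, -1.91 for Cdkn1c and -6.07 for Spp1. Among the remaining genes, the difference was -1.70 for Nt5dc2, -0.60 for Cul7, -2.82 for Clmn, -2.22 for Lin28b and -5.63 for Rasal1. Uncx, Bves and Gm15208 had 0 counts over the E15.5 controls, so their fitted differences of -6.99, -9.41 and -6.72 depend on the prior count of the fit and are no bound. Adjusted p ran from 2.43e-08 to 0.0376. Slit2 and Cdkn1c fell in controls by the test and their fitted change in the double mutant was upwards (log2 1.35 and 1.14). The groups held 2 or 3 samples each, too few for a search for single outlying samples.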

How the results depend on the processing

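In controls, the counts of genes called, rising, falling and changed at least 2-fold stayed within 1.5 times the reported ones under each alternative: RLE scaling, DESeq2, no filter on low counts, control samples alone, all 18 embryonic libraries kept separate, a block on title endings and each sample left out. Between 5103 genes (without the summed E15.5 pair) and 7713 genes (libraries separate) were called in place of 7176, and 69.0% to 98.8% of the reported calls were kept, none with the opposite direction. Leaving out 1 sample gave 2446 to 2905 genes changed at least 2-fold. E13.5 titles end in a tag that 1 sample of each genotype shares and in another that the other two share, E15.5 titles carry neither, and the labels do not say what the tags mean. Across genotypes, the deviations of samples from their group means correlated between -0.052 and 0.12 for the first tag. They ran from -0.22 to 0.21 for the second tag and from -0.18 to 0.20 for different tags. These correlations rest on few samples, so they do not decide whether samples with the same tag share anything else. With the tag as a replicate block, chosen after seeing the data, 7276 genes were called in controls, 10 against Bcl11a-CKO and 661 against Bcl11ab-DCKO; of the genes named, Cdkn1b (adjusted p = 0.0541) and Camk2a (0.0564) lost the call in controls, and Pde1c (0.0575) and Eya1 (0.0707) that against Bcl11a-CKO. Of the 202 called genes named in the text, 188 kept call and direction under every alternative. The reversed values were all of genes not called in controls. The log2 fold change of Nr4a2 was -0.011 with libraries separate, -0.14 to 0.30 without an E13.5 sample and -0.014 without E15.5 replicate 1. That of Nfia was -0.035 with libraries separate, -0.050 to 0.054 without an E13.5 sample and -0.13 without E15.5 replicate 1. Trp73 ran from -0.28 to -0.11 without an E13.5 sample and reversed to 0.023 without E15.5 replicate 1. Galnt14 ran from -0.17 to 0.050 without an E13.5 sample, and Pde1c was at 0.12 without the summed pair. The cause of these shifts was not tested.

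The 12 genes that differed from Bcl11a-CKO became 64 with DESeq2 (32 higher and 32 lower in controls) and 52 with libraries separate (31 and 21), and 2 to 19 with 1 sample left out (higher 1 to 8, lower 1 to 11). Without E15.5 Bcl11a-CKO replicate 1 there were 2, without its summed pair 5 (3 higher, 2 lower), without E15.5 control replicate 1 there were 4 (3 higher, 1 lower) and without the summed control pair 10 (3 higher, 7 lower). The 579 that differed from Bcl11ab-DCKO became 735 with DESeq2, 808 with libraries separate and 295 to 464 with 1 sample left out (higher 140 to 227, lower 144 to 259). Without E15.5 control replicate 1 there were 309 (165 higher, 144 lower), without the summed E15.5 control pair 295 (140 higher, 155 lower) and without E13.5 Bcl11ab-DCKO replicate 2 there were 377 (196 lower). The cause was not tested, other than that leaving out a sample leaves fewer to test. With 4313142 to 5186798 counts a library, a value under 1 CPM rests on few counts.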

Other observations

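Genes that pattern the cortex into areas moved in both directions in the control samples. Of 10 tested, 4 rose, 4 fell and 2 did not pass the test (median -0.15). Etv4 and Etv5 are ETS factors downstream of fibroblast growth factor signalling: Etv4 was at 0.195, 0.378 and 1.70 CPM at E13.5 and 11.2 and 10.2 CPM at E15.5 (log2 fold change 3.77 ± 0.52, adjusted p = 4.46e-05), and Etv5 was at 11.7, 31.9 and 15.3 CPM at E13.5 and 64.9 and 72.4 CPM at E15.5 (log2 fold change 1.80 ± 0.29, adjusted p = 0.000166). Both were higher in both E15.5 samples. Lmo3, a LIM-only protein, was at 36.6, 34.7 and 31.5 CPM at E13.5 and 61.6 and 75.2 CPM at E15.5 (log2 fold change 0.9995 ± 0.19, adjusted p = 0.000585), while Nr2f1 (COUP-TF1), which sets the identity of caudal areas, was at 403, 274 and 359.9 CPM at E13.5 and 278 and 186 CPM at E15.5 (log2 fold change -0.58 ± 0.16, adjusted p = 0.00854), with E15.5 replicate 1 inside the E13.5 range; its call was lost with the control samples alone (adjusted p = 0.0551) and without the summed E15.5 pair (adjusted p = 0.162).

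Of 4 tested genes of the medial edge, the hippocampus and the cortical hem, 1 rose, 0 fell and 3 did not pass the test, and Wnt3a and Wnt8b had 0 counts in the control samples. The member that rose was Rspo3, which enhances Wnt signalling, at 7.79, 9.07 and 6.23 CPM at E13.5 and 40.6 and 40.7 CPM at E15.5 (log2 fold change 2.40 ± 0.35, adjusted p = 7.06e-05). The summed level of the list was 85.5, 75.5 and 92.0 CPM at E13.5 and 189.7 and 207 CPM at E15.5, so the ages did not overlap, and 65.1 CPM of the E13.5 mean and 149 CPM of that at E15.5 were from Zbtb20. Of 10 genes of the mitochondrial genome, 3 rose, 2 fell and 5 did not pass the test (median 0.091), with a summed level of 20621, 19457 and 19849.8 CPM at E13.5 and 20107 and 22357 CPM at E15.5.

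Among adult globins, 2 of 4 fell and 0 rose. Hba-a1 was at 349, 224 and 244 CPM at E13.5 and 109 and 118 CPM at E15.5 (log2 fold change -1.26 ± 0.25, adjusted p = 0.000962). Its near-identical copy Hba-a2 was at 199, 131 and 129.6 CPM at E13.5 and 65.5 and 75.0 CPM at E15.5 (log2 fold change -1.12 ± 0.26, adjusted p = 0.00247), so the split of reads between them is uncertain. The other two adult globins tested did not pass the test. Slc4a1, the anion exchanger of the red cell membrane, was at 19.7, 8.12 and 15.1 CPM at E13.5 and 0.801 and 0.234 CPM at E15.5 (log2 fold change -4.93 ± 0.77, adjusted p = 0.000123).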
